A study of Mus musculus with 86 samples.

Results

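The clustered protocadherin genes of the mouse stand in tandem on chromosome 18 as the alpha, beta and gamma clusters. They were taken as the protein-coding genes of that chromosome whose symbols begin with Pcdha, Pcdhb or Pcdhg. This gave 57 of the 21900 protein-coding genes in the gene table, with 14 in the alpha cluster, 22 in the beta cluster and 21 in the gamma cluster. In the mm10 build the alpha genes spanned chr18:36930285-37188897 (259 kb), the beta genes chr18:37264998-37521419 (256 kb) and the gamma genes chr18:37661775-37841873 (180 kb). Adding 50 kb on each side gave the window described here, chr18:36880285-37891873 (1012 kb). It also holds Slc25a2 and Taf7 between the beta and gamma clusters and part of Diaph1 after the gamma cluster. The transcribed pseudogene Pcdhgb8 was not counted as a member.

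The study mapped histone marks and 2 DNA-binding proteins by ChIP-seq in mouse embryonic stem cells of strain 129S5/SvEvBrd, grown in serum with LIF on gelatin. Of its 86 libraries, the 8 used here hold the called intervals of CTCF (antibody ab70303) and SOX2 (antibody AF2018). Each factor has 2 mitotic libraries and 2 asynchronous libraries. The mitotic cells had 100 ng/ml nocodazole, which blocks the spindle, for 6 h and were then collected by shake-off, while the asynchronous cells had no such treatment. The share of mitotic cells in the collected fraction is not given in the sources used here. Nothing in the labels says that replicates came from separate cultures, so their spread may be technical. The lists hold no expression values, so the cell type was not checked against expression markers.

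Clustered protocadherins are adhesion proteins of the cell surface that bind their own kind on a neighbouring cell. Each neuron switches on its own mixture of them by choosing among the promoters, which gives it a surface identity. In the alpha and gamma clusters each variable first exon has its own promoter and is spliced to constant exons that all genes of the cluster share, whereas a beta gene is encoded by a single exon. CTCF, a zinc-finger protein that with cohesin anchors chromatin loops, binds at most of these promoters and joins them to enhancers that lie after the alpha cluster and after the gamma cluster. Most alpha variable exons carry a further CTCF site inside the exon. The promoters of Pcdhac2, Pcdhb1, Pcdhgc4 and Pcdhgc5 lack the sequence element that the others share. SOX2 is an HMG-box factor of the pluripotency network.

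CTCF intervals in the window numbered 45 and 35 in mitotic replicates 1 and 2, and 102 and 100 in asynchronous replicates 1 and 2. The mitotic mean was 40.0 ± 7.07 and the asynchronous mean 101 ± 1.41 (SD, n = 2 each), or 2.52-fold fewer in mitotic cells, against 3.84-fold fewer over the whole lists. The mitotic to asynchronous ratio was 0.396 over all intervals of the window, against 0.260 over the whole lists. It was 0.138 over window intervals with a deposited fold of at least 5. No whole-list ratio was taken under that filter, so whether the drop is particular to the window was not tested. For SOX2 the window held 1 and 0 mitotic intervals, against 113 and 73 asynchronous intervals. Both mitotic counts lay below both asynchronous counts for each factor. A two-sided exact permutation test over 2 against 2 libraries gave p = 0.333 for CTCF and for SOX2, which is the smallest p this design allows. The whole CTCF lists held 20142 and 15338 mitotic intervals and 68328 and 67995 asynchronous intervals. The whole SOX2 lists held 1976 and 408 mitotic intervals and 90266 and 63504 asynchronous intervals. The depth estimated from the lists, in reads per 100 bp, was 3.62 and 3.77 in the mitotic and 3.36 and 3.71 in the asynchronous CTCF libraries. For SOX2 it was 2.62 and 1.64 in the mitotic and 2.48 and 1.61 in the asynchronous libraries, so that replicate 2 was the shallower one in both conditions.

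**Figure D1:**
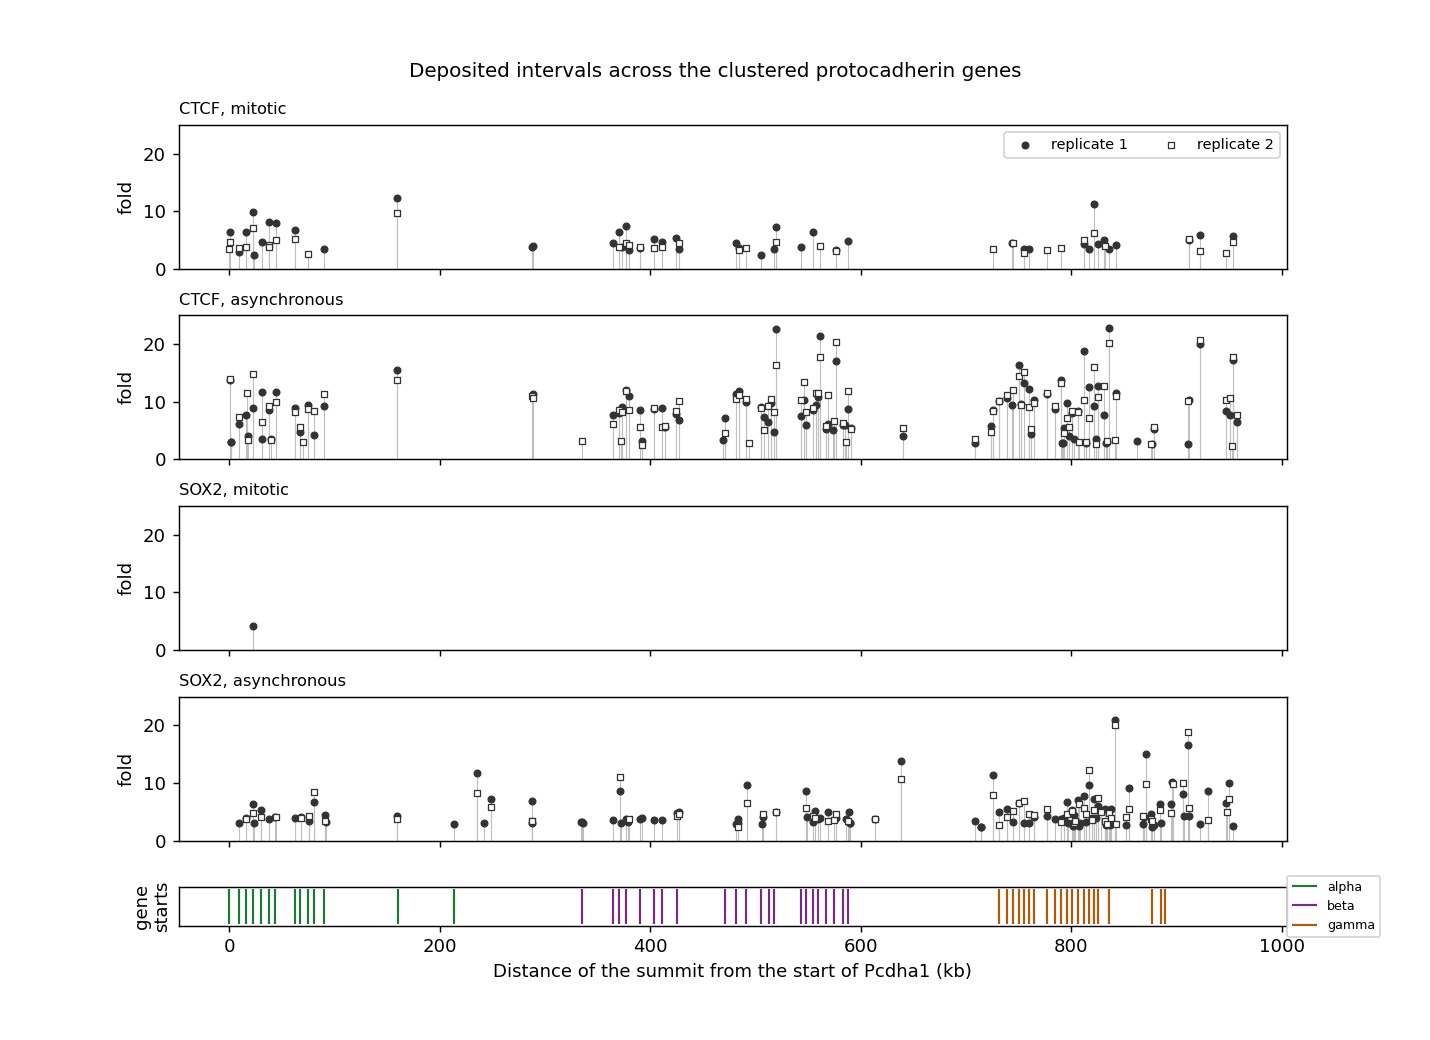
Deposited fold enrichment (vertical axis) of every called interval by the distance of its summit from the start of Pcdha1 in kb (horizontal axis), for CTCF and SOX2 in mitotic and asynchronous cells, with filled circles for replicate 1 and open squares for replicate 2. The mitotic CTCF panel holds 45 and 35 intervals along all 3 clusters, and the mitotic SOX2 panel holds 1.

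In the map of intervals along the window, mitotic CTCF intervals lay in the alpha, beta and gamma clusters alike. The fold is the authors' ratio of coverage at the summit to local background, and it ranks intervals only within its own list. Folds of mitotic and asynchronous lists are given side by side below as listed, and a difference between them is not a measured change of binding, because each list was called separately. Of the 45 intervals in mitotic replicate 1, 44 shared at least 1 bp with an asynchronous interval, as did all 35 of replicate 2. The single exception was a weak interval after the start of Pcdha4, with a fold of 2.38.

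Asynchronous intervals of a factor that overlapped between the replicates were merged into regions, and a region counted as called in a mitotic library when it shared at least 1 bp with an interval there. CTCF had 92 such regions in the window, or 9.09 per 100 kb, against 2.13 per 100 kb over all 57992 regions. Of the 92, 43 (46.7%, 95% Wilson interval 36.9% to 56.9%) were called in mitotic replicate 1, where 33.0% of all regions were called. In mitotic replicate 2, 33 (35.9%, 26.8% to 46.1%) were called, against 25.4% of all regions. Both mitotic lists called 26 (28.3%), against 24.5% of all regions, and neither called 42 (45.7%), against 66.0% of all. The window stood above the whole list in each mitotic library, though for calls in both lists the share was close to that of all regions and inside its own interval of 20.1% to 38.2%. Among intervals with a fold of at least 5 the order turned round, with a mean of 14.9% per mitotic library in the window, against 24.1% of all regions. These shares are counts of calls, and fewer cells with a bound site cannot be told apart here from less signal per cell.

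The alpha cluster held 15 CTCF regions, with 10 called in mitotic replicate 1 and 9 in replicate 2. That is 66.7% (41.7% to 84.8%) in replicate 1 and 60% (35.7% to 80.2%) in replicate 2, and the mean was 63.3% ± 4.71 (SD, n = 2). Both mitotic lists called 8 of the 15 and neither called 4. All but 2 of these regions lay at gene starts. Within 1 kb of the start, 13 of the 14 alpha genes had a CTCF interval in both asynchronous libraries and 8 had one in both mitotic libraries. The 8 were Pcdha1, Pcdha2, Pcdha3, Pcdha4, Pcdha6, Pcdha7, Pcdha8 and Pcdhac1.

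Pcdhac1, the first of the C-type genes, which differ in sequence from the other variable genes and are used more evenly among neurons, had the highest mitotic folds of all 57 starts in both libraries. They were 12.3 and 9.65 in mitotic cells, against 15.5 and 13.7 in asynchronous cells. The coverage solved from the fold and p-value at these summits was 107 and 84 reads in mitotic cells and 169 and 162 reads in asynchronous cells, over a local background of 7.79 to 10.9 reads. Pcdha4 had folds of 9.93 and 7.15 in mitotic cells, against 8.96 and 14.9 in asynchronous cells, so the listed ranges overlapped. Pcdha7 had folds of 7.95 and 4.99 in mitotic cells and 11.7 and 9.95 in asynchronous cells. Pcdha1, the first gene of the cluster, had 6.31 and 4.65 in mitotic cells and 13.8 and 13.9 in asynchronous cells. For Pcdhac1, Pcdha7 and Pcdha1 the listed ranges did not overlap, with the mitotic values lower.

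At the other end, the starts of Pcdha9 and Pcdha11 had no mitotic CTCF interval. Their asynchronous folds were 4.74 and 5.62 at Pcdha9 and 4.26 and 8.41 at Pcdha11. Pcdha5 and Pcdha12 were called in mitotic replicate 1 alone, at 4.56 and 3.51, and Pcdha10 in replicate 2 alone, at 2.58. Pcdhac2 had no CTCF interval in any of the 4 libraries; its promoter is among those that lack the shared element. Pcdha3 and Pcdha6 had a further CTCF region, 2280 and 2293 bp after the start, with listed folds of 3.35 to 4.03 in asynchronous cells and no mitotic call.

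The beta cluster held 37 CTCF regions, of which 19 (51.4%, 35.9% to 66.6%) were called in mitotic replicate 1 and 12 (32.4%, 19.6% to 48.5%) in replicate 2. The mean was 41.9% ± 13.4 (SD, n = 2), with 10 called in both mitotic lists and 16 in neither. The starts of 21 of the 22 beta genes had CTCF in both asynchronous libraries. Pcdhb1, which also lacks the shared element, was called in asynchronous replicate 2 alone, at a fold of 3.13. Both mitotic libraries had CTCF at 5 beta starts, those of the consecutive genes Pcdhb3 to Pcdhb7.

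Among them Pcdhb4 had the highest mitotic folds, 7.36 and 4.43, against 12.1 and 11.8 in asynchronous cells. Pcdhb3 had 6.31 and 3.77 in mitotic cells and 8.0 and 8.62 in asynchronous cells. Pcdhb5 had 3.66 and 3.86 in mitotic cells and 8.52 and 5.61 in asynchronous cells. The listed mitotic values were the lower ones in each of these 3 genes, without overlap. A further 9 beta starts were called in 1 mitotic library, 8 of them in replicate 1 and Pcdhb11 in replicate 2. The other 8 had no mitotic call, among them Pcdhb18, with asynchronous folds of 10.8 and 11.5, and Pcdhb1.

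Beta genes often had a further CTCF region inside the gene. Such a downstream region, with its summit 1 to 4 kb after the start, was found in 16 of 22 beta genes, in 5 of the 6 Pcdhgb genes, in 1 of the 12 Pcdhga genes, in 1 of the 3 Pcdhgc genes, in 2 of the 12 Pcdha genes other than the C-types and in neither Pcdhac gene. In all, 25 of the 57 members had one, against 13.8% of placed protein-coding gene starts. This grouping was chosen after the values were seen. The beta summits lay 1891 to 2372 bp after the start, with a median of 2240 bp, and those of the Pcdhgb genes 1883 to 2877 bp, with a median of 2181 bp. In 10 of the 16 beta genes the downstream region was stronger than the one at the start, where strength is the mean of a region's fold percentiles in the asynchronous replicates.

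The 3 strongest CTCF regions of the beta cluster were all of this downstream kind. At Pcdhb14 (chr18:37449258-37450423) the folds were 7.17 and 4.70 in mitotic cells, against 22.6 and 16.4 in asynchronous cells. At Pcdhb18 (chr18:37490757-37492080) only mitotic replicate 2 was called, at 3.97, against 21.5 and 17.8 in asynchronous cells. At Pcdhb20 (chr18:37505995-37506890) the folds were 3.29 and 3.0 in mitotic cells, against 17.1 and 20.3 in asynchronous cells. The starts of Pcdhb18 and Pcdhb20 had no mitotic CTCF interval. Over the window, both mitotic lists called 5 of 25 downstream regions (20%, 8.86% to 39.1%) and 17 of 53 start regions (32.1%, 21.1% to 45.5%). Of all CTCF regions, both lists called 24.5%. The 5 downstream regions called in both were all in beta genes (Pcdhb4, Pcdhb8, Pcdhb10, Pcdhb14 and Pcdhb20). None of the 7 downstream regions of the gamma cluster was called in either mitotic library. These 7 were weaker, with a median strength of 44.0, against 76.8 for the 16 of the beta cluster, and the part of strength in this was not tested.

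**Figure D2:**
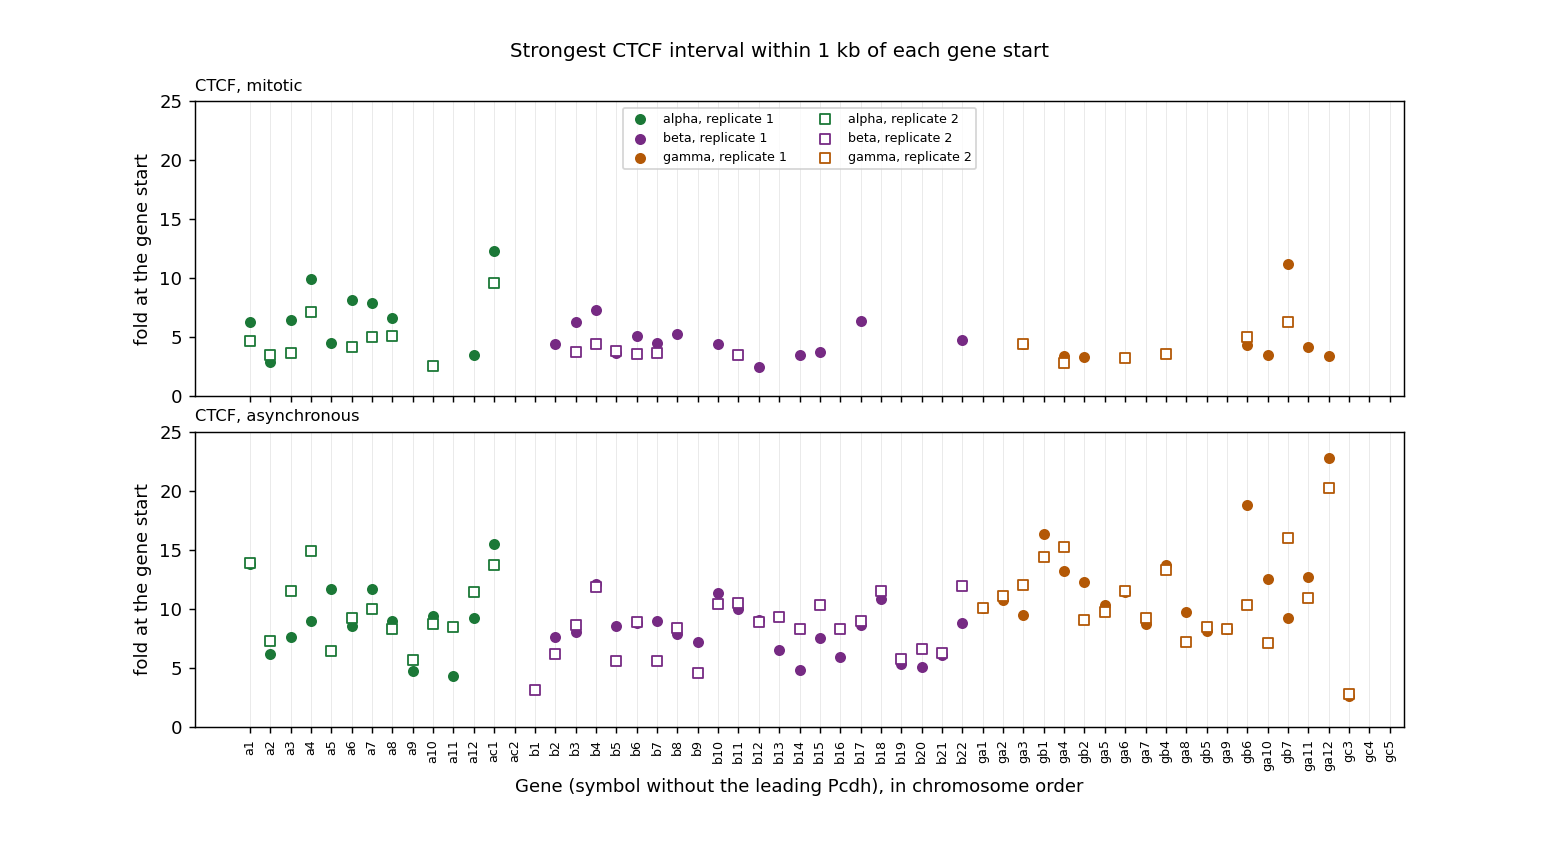
Fold of the strongest CTCF interval within 1 kb of each of the 57 gene starts (vertical axis), by gene in chromosome order (horizontal axis), in mitotic cells above and asynchronous cells below; filled circles are replicate 1, open squares replicate 2, and a gene with no point was not called. In mitotic cells the highest points are those of Pcdhac1, 12.3 and 9.65, while in asynchronous cells they are those of Pcdhga12, 22.8 and 20.2.

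The gamma cluster held 30 CTCF regions at the highest density of the 3, 16.7 per 100 kb, against 14.4 in the beta and 5.80 in the alpha cluster. Mitotic replicate 1 called 11 of them (36.7%, 21.9% to 54.5%) and replicate 2 called 8 (26.7%, 14.2% to 44.4%), and their mean was 31.7% ± 7.07 (SD, n = 2). Both mitotic lists called 6 and neither called 17. CTCF was present in both asynchronous libraries at 19 of 21 gamma starts, the exceptions being Pcdhgc4 and Pcdhgc5, and in both mitotic libraries at Pcdhga3, Pcdhga4, Pcdhgb6 and Pcdhgb7.

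The plot of folds by gene start shows that the leading gamma start differed between the conditions. Pcdhga12 had the strongest CTCF region of all 57 starts in asynchronous cells, and its folds were 3.39 in mitotic replicate 1 and no call in replicate 2, against 22.8 and 20.2 in asynchronous cells. Its summit coverage was 28 reads in mitotic replicate 1, against 259 and 222 reads in asynchronous cells. Pcdhgb1 had no mitotic call, with asynchronous folds of 16.3 and 14.4. Pcdhgb7 had the highest mitotic folds of the cluster, 11.2 and 6.28, against 9.18 and 16.0 in asynchronous cells, so its listed ranges overlapped.

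Among the other gamma starts, Pcdhgb6 had folds of 4.32 and 4.99 in mitotic cells and 18.8 and 10.3 in asynchronous cells. Pcdhga4 had 3.40 and 2.79 in mitotic cells and 13.2 and 15.2 in asynchronous cells. In both genes the listed mitotic values were the lower ones, without overlap. The C-type gene Pcdhgc3 had a weak interval in asynchronous cells alone, with folds of 2.62 and 2.73. Away from the gene starts, a region between the starts of Pcdhga11 and Pcdhga12 (chr18:37761067-37762195), which covers the start of the pseudogene Pcdhgb8, had folds of 4.91 and 4.02 in mitotic cells and 7.77 and 12.7 in asynchronous cells. A region near the shared end of the gamma genes (chr18:37840829-37841837) had 5.02 and 5.11 in mitotic cells and 10.3 and 10.1 in asynchronous cells.

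**Figure D3:**
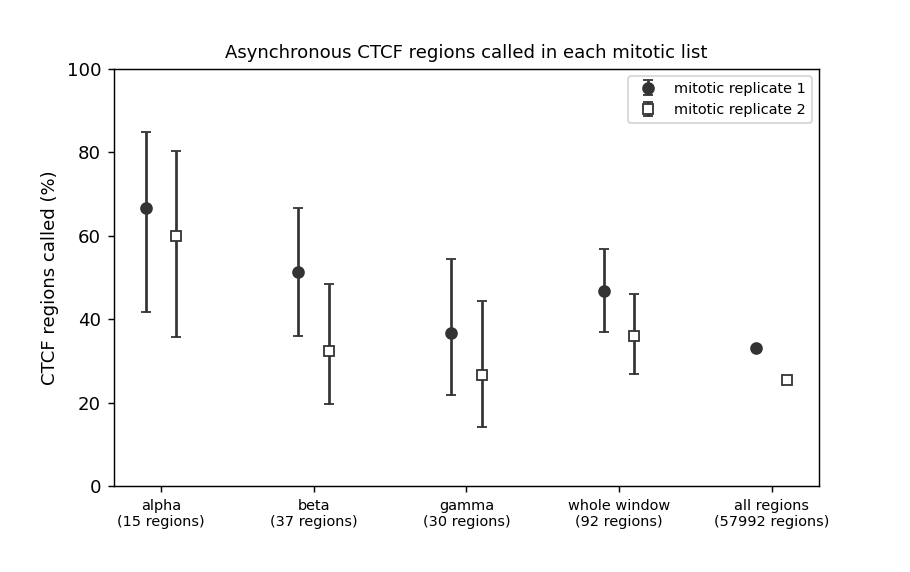
Percent of the asynchronous CTCF regions that were called (vertical axis) in mitotic replicate 1 (filled circles) and mitotic replicate 2 (open squares), for the 3 clusters, the whole window and all regions (horizontal axis), with 95% Wilson intervals that cover counting error only. The alpha points, 66.7% and 60%, are the highest, and the gamma points, 36.7% and 26.7%, lie nearest to those of all regions, 33.0% and 25.4%.

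Counted over all 57 members, CTCF was at 53 starts (93.0%) in both asynchronous libraries, against 27.3% of the 17549 protein-coding gene starts that could be placed. It was at 17 starts (29.8%) in both mitotic libraries, against 6.40%. With a fold of at least 5 the 17 became 4, and mitotic replicates 1 and 2 taken alone had CTCF at 31 and 21 starts. For these counts the share over all placed starts was not taken, so they are not compared with other genes. Among starts with CTCF in both asynchronous libraries, 17 of 53 (32.1%) also had it in both mitotic libraries, against 23.1% of all such starts. That share was 8 of 13 in the alpha, 5 of 21 in the beta and 4 of 19 in the gamma cluster. As the plot of regions called by cluster shows, the order alpha, beta, gamma was the same in each mitotic library. The Wilson intervals of the clusters overlapped, and the difference between clusters was not tested, since regions of the same library are not replicates. Median strength was 75 in the alpha, 71.4 in the beta and 80.7 in the gamma cluster, against 57.7 over all regions. Regions with a strength below 50 were 3 of 15 in alpha, 4 of 37 in beta and 8 of 30 in gamma. Whether strength accounts for the order of the clusters was not tested.

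Stronger regions are called more often in any list, so the clusters were also set beside all regions of like strength. At a strength of 90 or more, both mitotic lists called 9 of 13 regions in the window (69.2%, 42.4% to 87.3%), against 81.2% of all such regions. Between 75 and 90 they called 9 of 32 (28.1%, 15.6% to 45.4%), against 56.7% of all. Between 50 and 75 they called 8 of 29 (27.6%, 14.7% to 45.7%), against 18.7% of all, and below 50 none of 18, against 0.902%. For calls in both lists, the share in the class from 75 to 90 lay below that of all regions by more than its counting interval, and those of the other classes did not. Taken per library, the class from 75 to 90 was also below all regions, with 56.2% (39.3% to 71.8%) against 71.9% in mitotic replicate 1 and 40.6% (25.5% to 57.7%) against 58.3% in replicate 2. The class from 50 to 75 ran the other way, with 51.7% (34.4% to 68.6%) against 31.0% in replicate 1, beyond its interval, and 31.0% (17.3% to 49.2%) against 20% in replicate 2, within it. By cluster, in the class from 75 to 90, both lists called 3 of 5 regions in alpha, 2 of 10 in beta and 4 of 14 in gamma. In the class from 50 to 75 they called 3 of 5 in alpha, 5 of 19 in beta and 0 of 3 in gamma. The CTCF regions of the window were also wider than most, with a median of 925 bp, against 608 bp over all regions.

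SOX2 had 69 regions in the window that were found in both asynchronous libraries, or 6.82 per 100 kb, against 1.90 per 100 kb over all 51672. The gamma cluster held 36 of them (20 per 100 kb), the beta cluster 14 (5.46 per 100 kb) and the alpha cluster 11 (4.25 per 100 kb). Mitotic replicate 1 called 1 of the 69 (1.45%, 0.256% to 7.76%), against 3.37% of all regions, and mitotic replicate 2 called 0 (up to 5.27%), against 0.755% of all. No region of the window was called in both mitotic lists, against 0.675% of all SOX2 regions, and 68 (98.6%) were called in neither, against 96.6%. With so few calls over the whole lists, a difference between the window and the rest was not detectable.

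The single mitotic SOX2 interval lay 445 bp after the start of Pcdha4, with a fold of 4.17 and 26 reads at the summit, against folds of 6.31 and 4.79 in asynchronous cells. Its summit in asynchronous replicate 1 was 450 bp after the start, and the CTCF summit of mitotic replicate 1 was 506 bp after it. In asynchronous cells SOX2 was at 34 of the 57 starts in both libraries (59.6%), against 35.9% of all placed starts, and no member had it in both mitotic libraries, against 0.678%. The 34 were 19 of 21 gamma, 9 of 14 alpha and 6 of 22 beta starts. A further 15 starts, 10 of them in the beta cluster, had SOX2 in a single asynchronous library. Of the 116 SOX2 regions obtained by merging either list, 44 came from asynchronous replicate 1 alone and 3 from replicate 2 alone. Replicate 2 was the shallower of the pair, and its part in the low beta count was not tested.

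SOX2 and CTCF regions often coincided. Of the 92 CTCF regions of the window, 50 (54.3%, 44.2% to 64.1%) overlapped a SOX2 region by at least 1 bp, against 18.3% of all CTCF regions. By cluster the shares were 23 of 30 (76.7%) in gamma, 9 of 15 (60%) in alpha and 14 of 37 (37.8%) in beta. Taken from the other side, 52 of the 69 SOX2 regions (75.4%, 64.0% to 84.0%) overlapped a CTCF region, against 20.3% of all SOX2 regions. At gene starts that had CTCF, SOX2 was present in 33 of 53 (62.3%), against 56.4% of all starts with CTCF. The clusters went different ways, with 18 of 19 (94.7%) in gamma, 9 of 13 (69.2%) in alpha and 6 of 21 (28.6%) in beta. Asking for summits within 100 bp of each other lowered the share of the window's CTCF regions with SOX2 to 19.6%, against 8.48% of all CTCF regions. Among intervals with a fold of at least 5 it was 18.9%, against 5.28% of all CTCF regions.

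**Figure D4:**
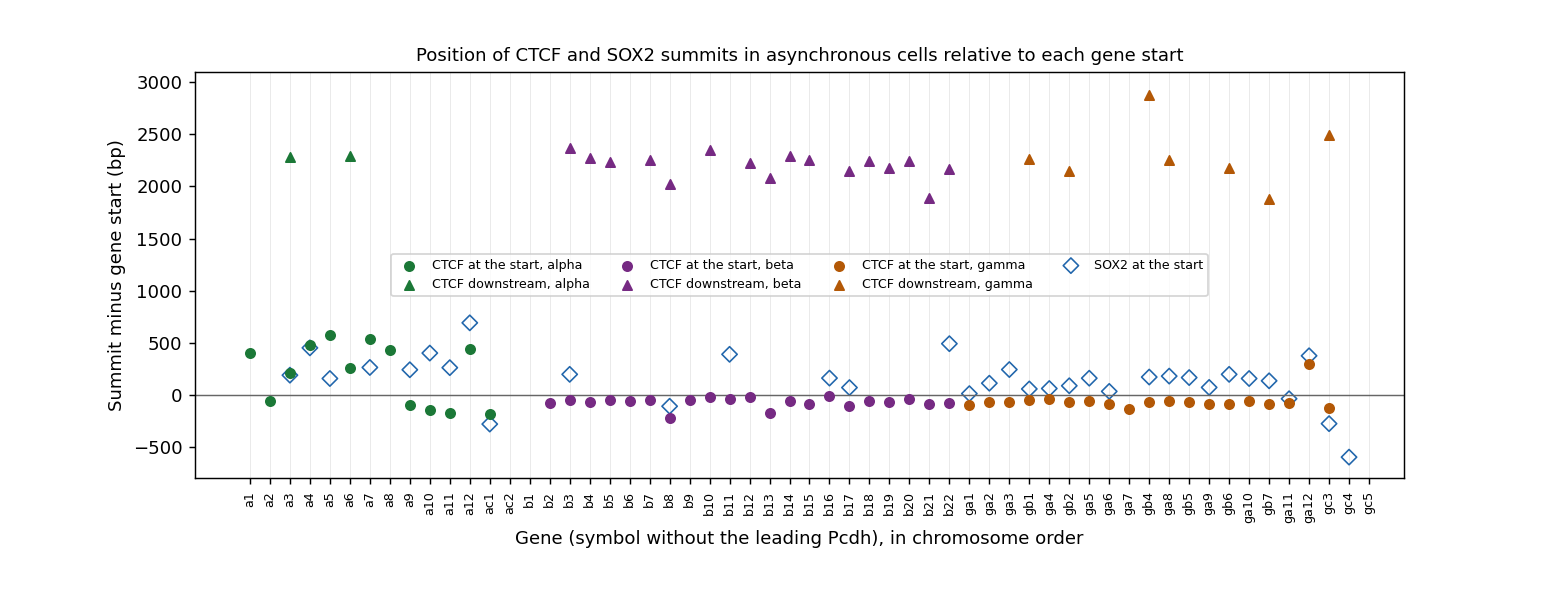
Distance of the summit from the gene start in bp (vertical axis, mean over both asynchronous libraries) for CTCF at the start (circles), CTCF 1 to 4 kb downstream (triangles) and SOX2 at the start (open diamonds), by gene in chromosome order (horizontal axis). Beta and most gamma CTCF summits lie just before the start, with medians of -56.5 and -70.5 bp, while the alpha summits reach 579 bp into the gene.

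The plot of summit positions shows that CTCF was placed differently in the alpha cluster than in the beta and gamma clusters. Relative to the gene start, and as means over both asynchronous libraries, beta CTCF summits lay at -218 to -12 bp, with a median of -56.5 bp. The gamma median was -70.5 bp, with Pcdhga12 alone far inside the gene, at 297 bp after the start. Alpha summits had a median of 258 bp after the start and fell into separate positions. In both asynchronous libraries the summit was over 300 bp inside the gene, at 387 to 584 bp, in Pcdha1, Pcdha4, Pcdha5, Pcdha7, Pcdha8 and Pcdha12. It lay at -195 to -52 bp, before the start, in Pcdha2, Pcdha9, Pcdha10, Pcdha11 and Pcdhac1. In Pcdha3 and Pcdha6 the replicates differed, with the summit near the start in replicate 1 and inside the gene in replicate 2. Of the 6 genes with an inside summit, 4 were called in both mitotic lists and 2 in a single list. Of the 5 with a summit before the start, 2 were called in both, 1 in a single list and 2 in neither.

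SOX2 summits lay further into the genes than CTCF summits at most starts that had both factors. Over these 33 starts the SOX2 summit was a median of 174 bp after the CTCF summit, and the summits were within 100 bp of each other at 5 of them. The median was 170 bp in the gamma cluster, 210 bp in the beta cluster and -24.0 bp in the alpha cluster, where the single values ran from -421 to 542 bp. In Pcdha4 the mean positions were 452 bp for SOX2 and 482 bp for CTCF after the start. Within 1 kb of its start Pcdhgc4 had SOX2 without CTCF, with folds of 6.42 and 5.28 in asynchronous cells and a summit at -596 bp from the start. Pcdhgc5 had neither factor within 1 kb of its start in any library, though regions of both lay further inside the gene.

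The highest SOX2 folds lay away from the gene starts. The strongest region (chr18:37771116-37772420), 6.07 kb after the start of Pcdhga12, had folds of 21.0 and 20 in asynchronous cells and no mitotic call. It overlapped a CTCF region whose folds were 4.09 in mitotic replicate 1, with no call in replicate 2, and 11.6 and 11 in asynchronous cells. Next was a region close to the shared end of the gamma genes (chr18:37840287-37841253), with SOX2 folds of 16.6 and 18.8 in asynchronous cells. Of nearly equal strength were 2 further regions. One, chr18:37567938-37568877 between the beta and gamma clusters (strength 92.0), had folds of 13.9 and 10.7 and no CTCF. The other lay 5.42 kb before the start of Pcdhgc3 (chr18:37800463-37801517, strength 91.4), without CTCF, with folds of 15.0 and 9.78. Among the starts themselves, Pcdhga10 had the strongest SOX2 region, with folds of 9.66 and 12.3 in asynchronous cells. In the alpha cluster the strongest SOX2 region (chr18:37165175-37165916) lay 21.9 kb after the start of Pcdhac2, with folds of 11.7 and 8.26 and no CTCF.

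Long-range enhancers are known to lie between and after the clusters. CTCF regions were less dense between the clusters than inside them. Their density was 1.31 per 100 kb from alpha to beta and 2.85 per 100 kb from beta to gamma, against 2.13 per 100 kb over all regions. In the 50 kb after the gamma cluster it was 10.0 per 100 kb, while the 50 kb before the alpha cluster held no region of either factor. SOX2 regions numbered 2.63, 2.14 and 6.00 per 100 kb from alpha to beta, from beta to gamma and after gamma, against 1.90 per 100 kb over all regions. Between the alpha and beta clusters there was a single merged CTCF region, chr18:37216914-37218846, with a width of 1933 bp. In asynchronous replicate 1 it was 1 interval, with a fold of 11.4 and a summit 288.18 kb after the start of Pcdha1. In asynchronous replicate 2 it was 2 intervals, with folds of 11 and 10.7 and summits at 287.15 and 288.21 kb. Mitotic replicate 1 also had 2 intervals there, with folds of 3.70 and 3.94, and mitotic replicate 2 had no call. Whether the region holds 1 CTCF site or 2 was not tested. The merged region overlapped 2 SOX2 regions, and whether it is the known alpha enhancer was not tested. Between the beta and gamma clusters, 1 of 4 CTCF regions had a mitotic call, chr18:37654833-37656066, with a fold of 3.47 in replicate 2 alone, against 8.56 and 8.41 in asynchronous cells. After the gamma cluster, within Diaph1, both mitotic lists called the 2 strongest of 5 CTCF regions. At chr18:37851861-37852846 the folds were 5.91 and 3.04 in mitotic cells, against 20 and 20.7 in asynchronous cells. At chr18:37883085-37884254 they were 5.73 and 4.65 in mitotic cells, against 17.2 and 17.8 in asynchronous cells. Neither of these overlapped a SOX2 region.

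Other genes of related function were looked up from lists. Of 12 listed non-clustered protocadherins, which are single genes scattered over the genome, 9 could be placed. Of these 9, 0 had CTCF at the start in both mitotic libraries and 1 (Pcdh7, with asynchronous folds of 3.86 and 3.13) had it in both asynchronous libraries. SOX2 was at the starts of 4 of them (Pcdh7, Pcdh8, Pcdh10 and Pcdh17) in both asynchronous libraries and at none in both mitotic ones. Of 15 listed classical cadherins, the calcium-dependent adhesion proteins, 9 could be placed, and 1 had CTCF in both mitotic and 3 in both asynchronous libraries. That 1 was Cdh24, with folds of 10.3 and 6.58 in mitotic cells and 13.1 and 17.4 in asynchronous cells. Of 8 listed factors known to act on the clusters or on chromatin loops, 6 could be placed, and 0 had CTCF at the start in both mitotic libraries and 3 (Ctcf, Dnmt3b and Smchd1) had it in both asynchronous libraries. SOX2 was at 2 of the 9 cadherin starts and 3 of the 6 factor starts in both asynchronous libraries, and at 0 in both mitotic ones. Over all placed starts, CTCF was at 6.40% in both mitotic and 27.3% in both asynchronous libraries. For SOX2 these shares were 0.678% and 35.9%.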

How the data were processed

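CTCF and SOX2 peak lists of 2 mitotic and 2 asynchronous ChIP-seq libraries per factor were used, grouped by title and treatment. The tools named, per the submitters' processing notes, are MACS2 2.1.1.20160309, BWA 0.7.17, CASAVA 1.4 and SAMtools, and the build is mm10. Options, mapping filters and control libraries are not stated there, so it is unknown how reads shared by near-identical protocadherin copies were placed. The authors deposited 1 list per library, without pooling. In each list the deposited fold is a ratio of summit coverage to local background, given with a −log10 p-value, a −log10 q-value and a display score. Folds rank intervals within their own list. Mitotic and asynchronous folds listed side by side, with whether they overlap, describe the lists and measure no change, and the comparison of conditions rests on the calls.

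Depth and summit reads were solved from the deposited fold and −log10 p under a Poisson model, in up to 2000 summits per library. All came out whole within 0.05 reads. Intervals were merged and intersected by code checked against bedtools 2.31.1, in Python 3.11.15 with pandas 2.3.3, numpy 2.4.6 and scipy 1.17.1. Genes came from a RefSeq table of GRCm38.p6. It gives no strand for the members, so the lower coordinate was taken as the start. The other protein-coding genes, for the background, were placed by the strand in RefSeq's promoter table. Wilson intervals (95%) cover counting error only, and regions of a library are not replicates. The overlap and placing steps were tested on simulated intervals. Alternatives were an overlap of at least 50% of the shorter interval, summits within 100 bp, a −log10 q or fold of at least 5, flanks of 0 or 100 kb, start windows of 500 bp or 2 kb, and each library left out. Named genes are the members and the listed genes with calls. The members and lists were chosen with earlier results of these data known. No sequence is printed.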

Additional observations from a re-analysis of the deposited data

How the results depend on the processing

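Over 95 alternative values of 10 results, shares called were judged by the spread between replicates, the overlap by its counting interval, gene counts by 1.5 times and the ratios of interval numbers by direction alone. By these, 80 held and 15 moved. Each ratio stayed below 1, though that of CTCF in the window was 0.138 with a fold of at least 5, against 0.396 over all its intervals. No whole-list ratio was taken under that filter. The order alpha, beta, gamma in the share of CTCF regions called held in 10 of 10 alternatives. Keeping only intervals with a fold of at least 5 moved most: the share called per mitotic library became 14.9% in the window, 45.5% in alpha, 9.09% in beta and 8.70% in gamma, against 24.1% over all regions, so that the comparison of the window with the whole list, 41.3% against 29.2% over all intervals, turned round. Under that filter the starts with CTCF in both mitotic lists numbered 4, with no share over all placed starts taken. The overlap with SOX2 was 18.9%, against 5.28% over all regions. With a −log10 q of at least 5 the alpha share was 56.7% and the overlap 43.8%, against 29.6% and 12.8% over all regions. With summits within 100 bp they were 56.7% and 19.6%, against 28.3% and 8.48%. Regions of either asynchronous library gave 50% in alpha.

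The replicate numbers paired the samples by number alone, and deviations of same-numbered libraries correlated by 0.002 over 14210 CTCF regions and 0.013 over 349 SOX2 regions. The replicate block gave 55.9% in alpha, 40% in beta, 27.8% in gamma and 37.6% in the window for CTCF, a ratio of CTCF interval numbers of 0.393 (0.396 without it) and 0.442% for SOX2. A SOX2 ratio under the block could not be given, because mitotic replicate 2 had 0 intervals.

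Leaving out each library in turn gave 52.8% to 66.7% in alpha, 32.4% to 51.4% in beta, 26.4% to 36.7% in gamma and 35.9% to 46.7% in the window. Without mitotic CTCF replicate 2, 31 starts had mitotic CTCF, and without replicate 1, 21, with no share over all placed starts taken for either. The overlap with SOX2 ranged from 52% to 78.3%, the highest value without SOX2 asynchronous replicate 2. The cause was not tested. Small numbers of regions per cluster limit these values.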
